A study of Mus musculus with 4 samples.

Results

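The inflammasome and pannexin genes examined here are Nlrp3, Aim2, Pycard, Casp1, Casp4, Casp8, Panx1 and Txnip, measured in the mouse amygdala. They were chosen by gene name, taking every probe that the array files assign to one of them, which gave 11 of 41174 transcript probes and 8 genes, with 2 probes each for Pycard, Panx1 and Txnip. Of the 8 genes, 7 had a probe that passed the filter on dim signal and were tested among 19463 genes. Aim2 had none.

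The groups were P2X7R KO mice given lipopolysaccharide (LPS, a bacterial cell wall component), P2X7R KO mice given saline, wild-type mice given LPS and wild-type mice given saline, with 4 arrays per group. All were male C57BL/6J mice aged 10 weeks, injected intraperitoneally and killed 6 h later, and all arrays were hybridised with RNA from whole amygdala. The labels give the dose both as 7.5 µg per mouse and as 250 µg/kg. They do not name the knockout allele or say which array belongs to which mouse, and the spread behind each p-value is thus between arrays, and may be partly technical.

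Inflammasomes are cytosolic complexes in which a sensor such as NLRP3 or AIM2 recruits the adaptor ASC, the product of Pycard, and through it caspase-1, which matures interleukin-1β and interleukin-18. Opening of the ATP-gated P2X7 receptor, an ion channel, lets potassium leave the cell and is a classical trigger of NLRP3. Pannexin-1 is a large-pore channel through which ATP leaves cells, mouse caspase-4 (also known as caspase-11) binds LPS in the cytosol, caspase-8 governs death-receptor apoptosis and restrains necroptosis, and TXNIP binds thioredoxin and has been described as a partner of NLRP3. In the brain many of these genes are expressed mainly by microglia, the resident macrophages, while pannexin-1 is also neuronal.

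Each measurement rests on a probe of 60 bases, and the probes below are those on which the results turn, printed 5′ to 3′ in the sense of the transcript as the files give them, with mm9 positions. In the Pycard pair the capitals mark the 40 bases that both probes share, so the pair is not independent evidence. In the other probes no part is marked.
Nlrp3, chr11:59378554-59378613, plus strand: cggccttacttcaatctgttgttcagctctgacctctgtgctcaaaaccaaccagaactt
Aim2, chr1:175395269-175395328, plus strand: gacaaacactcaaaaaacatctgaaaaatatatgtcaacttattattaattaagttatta
Pycard, chr7:135136221-135136280, minus strand: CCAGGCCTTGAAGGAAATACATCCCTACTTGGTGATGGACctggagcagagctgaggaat
Pycard, chr7:135136241-135136300, minus strand: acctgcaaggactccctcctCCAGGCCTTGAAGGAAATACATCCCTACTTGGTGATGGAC
Casp4, chr9:5336645-5336704, plus strand: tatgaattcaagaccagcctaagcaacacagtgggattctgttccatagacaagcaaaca
Casp8, chr1:58901601-58901660, plus strand: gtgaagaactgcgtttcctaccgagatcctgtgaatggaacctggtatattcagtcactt
Panx1, chr9:14810250-14810309, minus strand: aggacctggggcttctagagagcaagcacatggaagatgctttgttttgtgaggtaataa
Txnip, chr3:96365147-96365206, plus strand: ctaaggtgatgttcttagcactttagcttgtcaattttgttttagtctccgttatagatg

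The Casp1 probe covers chr9:5306226-5306728, a stretch of 503 bases for 60 bases of probe. Casp1 and Casp4 are related neighbours on chromosome 9, and the longest run of letters that their probes share is 5 bases. The second Panx1 probe lies at chr9:14812359-14812418 and the second Txnip probe within chr3:96363085-96363259. Whether each probe lies in coding sequence or in an untranslated region was not analysed here.

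Levels are log2 intensity with the array's own 75th percentile set to 0, and differences between groups are log2 differences ± the standard error of a limma fit over all 16 arrays (n = 4 arrays per group). A gene is said to rise, fall or differ where the adjusted p (Benjamini-Hochberg over 19463 genes) lies under 0.05. The 75th percentile of intensity was 345.9 to 614 on knockout arrays and 581.3 to 1164.7 on wild-type arrays, and the share of probes well above background was 58.1% to 71.9%. Knockout arrays are all on slides 3 and 4 and wild-type arrays on slides 1 and 2, scanned in another session, so genotype, slide and session cannot be told apart. Each slide holds 2 LPS and 2 saline arrays, so LPS responses can be read within a slide. Markers of amygdala neurons (Rspo2, Cyp26b1, Prkcd, Tac2, Wfs1 and Lypd1) were well above background on all 16 arrays. Wfs1 was also counted among the hippocampal markers used below.

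Wild-type saline replicates 1 and 2, both on slide 1, stood apart from replicates 3 and 4 in genes that respond to LPS. Gbp2, an interferon-inducible GTPase, had levels of 2.33 to 3.58 on the wild-type LPS arrays, against 3.32, 3.24, −2.09 and −2.42 on wild-type saline replicates 1 to 4. The pair also stood apart in markers of other cells and regions. On replicates 1 to 4 the mean of 6 oligodendrocyte markers was 2.42, 2.35, 3.51 and 3.49. The mean of 5 hippocampal markers was −0.67, −0.51, 0.57 and 0.69. That of 5 astrocyte markers was alike, at 2.21 to 2.29. The reason was not tested, and results of the members that include wild-type saline are given with and without that pair. The pair was singled out on these same data, in genes that respond to LPS. Calls made without it are thus not independent of that choice and are given as a description. P2rx7, the targeted gene, had levels of −1.08, −1.21, −1.69 and −1.43 on knockout LPS arrays and −0.80, −0.91, −1.57 and −1.08 on knockout saline arrays, against 0.14, 0.28, 0.07 and 0.70 on wild-type LPS arrays and −0.15, 0.14, 0.78 and 0.90 on wild-type saline arrays. It was lower in knockout after LPS (−1.65 ± 0.25, adjusted p = 0.000105) and after saline (−1.51 ± 0.25, adjusted p = 0.000207, and −1.94 ± 0.25 without the pair) with no overlap. The position of the deletion is not given in the sources used here, so this probe does not check the labels.

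**Figure D1:**
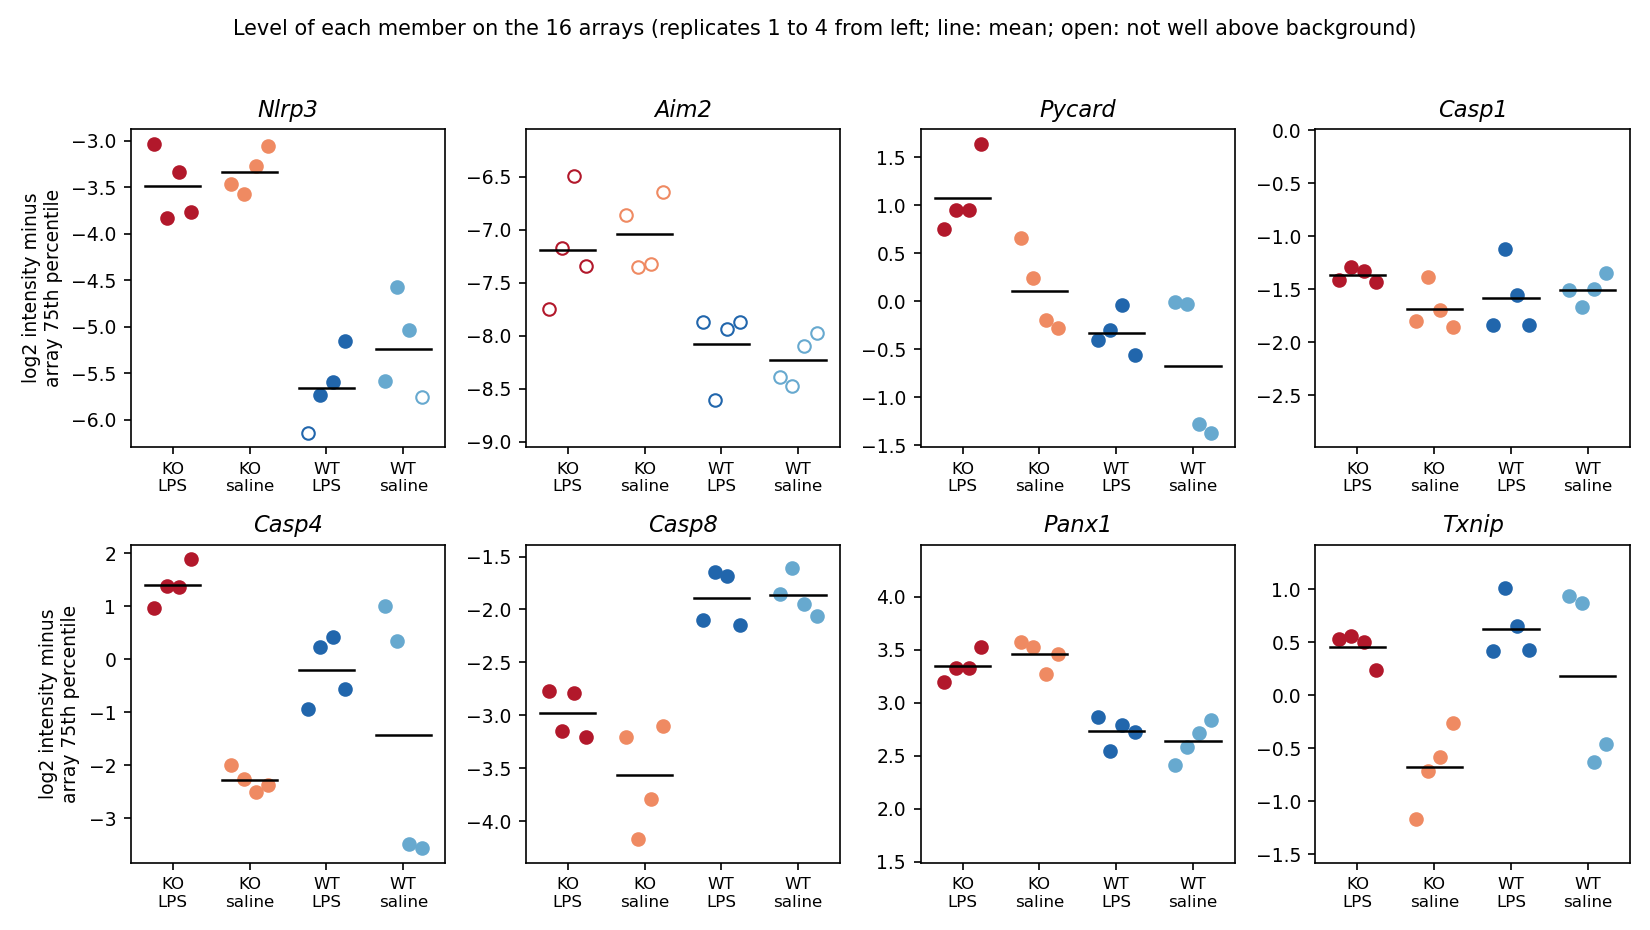
Level of each gene on every array, as log2 intensity minus the 75th percentile of the array (y axis), for knockout LPS, knockout saline, wild-type LPS and wild-type saline (x axis). Each point is 1 array, in the order of replicates 1 to 4 within a group, lines are group means, and open points were not well above background. Casp4 spans the widest range, with wild-type saline arrays at 1.01 and 0.34 and at −3.49 and −3.57, whereas Nlrp3, Casp8 and Panx1 separate by genotype.

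Casp4 had the largest LPS difference of the 7 genes tested, in both genotypes. In knockout amygdala it rose by 3.69 ± 0.80 (log2, a 12.9-fold higher signal, adjusted p = 0.0155), and no other tested member passed in that comparison. Its levels were 0.97, 1.38, 1.37 and 1.89 on the knockout LPS arrays, against −1.99, −2.26, −2.51 and −2.38 on the knockout saline arrays. Every knockout LPS array lay far above every knockout saline array, and the groups did not overlap. Of all genes tested, 3.64% were called in this comparison and 2.5% were called as higher, against 1 of the 7 members. RNA was taken from whole tissue, where more cells of a type and more RNA per cell cannot be told apart.

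In wild-type mice the Casp4 levels were −0.93, 0.24, 0.42 and −0.56 after LPS, against 1.01, 0.34, −3.49 and −3.57 after saline. The LPS arrays were close to wild-type saline replicates 1 and 2 and far above replicates 3 and 4, so the groups overlapped, and the difference of 1.22 ± 0.80 did not pass (adjusted p = 0.857). Without that pair Casp4 rose by 3.32 ± 0.35 (adjusted p = 7.45e-05, 2 saline arrays). Within slide 2 the difference was 3.37 ± 0.30 (adjusted p = 0.0258), and within slide 1, which holds the pair, it was −0.93 ± 0.54 (adjusted p = 0.769). The knockout values within slides were 3.61 ± 0.18 on slide 3 (adjusted p = 0.00276) and 3.76 ± 0.40 on slide 4 (adjusted p = 0.00968).

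The LPS responses of Casp4 in the 2 genotypes were not shown to differ. The difference between the responses, knockout minus wild type, was 2.47 ± 1.14 (adjusted p = 0.708), and 0.36 ± 0.45 (adjusted p = 0.907) without wild-type saline replicates 1 and 2. After LPS alone, the scaled level on every knockout array lay above that on every wild-type array (1.61 ± 0.80, adjusted p = 0.112). Without the pair, where the pooled spread is smaller, this difference passed (adjusted p = 0.000476). Before scaling, the intensity overlapped, at 995 to 1960 on knockout LPS arrays and 309 to 1250 on wild-type LPS arrays. After saline the knockout arrays lay between the 2 sets of wild-type arrays. That difference was −0.86 ± 0.80 (adjusted p = 0.389), and without the pair it turned to 1.25 (adjusted p = 0.0139), so no direction can be given for Casp4 between genotypes after saline.

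Pycard, which encodes the adaptor ASC, had its highest levels in knockout LPS. Its levels were 0.75, 0.95, 0.95 and 1.64 in knockout LPS, against 0.66, 0.24, −0.20 and −0.28 in knockout saline. The groups did not overlap, as was so for 11.3% of all genes, but the difference of 0.97 ± 0.32 did not pass (adjusted p = 0.142). With slide as a block it passed (adjusted p = 0.0252), and so it did within slide 3 alone (1.09 ± 0.14, adjusted p = 0.0253) and without wild-type saline replicates 1 and 2 (adjusted p = 0.0291). Within slide 4 it was 0.84 ± 0.43 (adjusted p = 0.959).

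In wild type the Pycard levels were −0.41, −0.30, −0.04 and −0.56 after LPS, against −0.01, −0.03, −1.28 and −1.37 after saline. Here too, saline replicates 3 and 4 lay below every LPS array, while replicates 1 and 2 lay level with the highest LPS array. The difference was 0.34 ± 0.32 (adjusted p = 0.926). Without the pair the difference was 1.0 ± 0.29 (adjusted p = 0.0908). After LPS, Pycard was higher in knockout than in wild type by 1.40 ± 0.32 (adjusted p = 0.0026) with no overlap of the scaled levels. Before scaling, its intensity overlapped, at 740 to 1650 on knockout LPS arrays and 396 to 863 on wild-type LPS arrays. After saline the knockout minus wild-type difference was 0.77 ± 0.32 (adjusted p = 0.0573), and 1.43 (adjusted p = 0.0024) without the pair.

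The second Pycard probe, with 40 of its 60 bases in common with the first, gave smaller differences between genotypes. It had levels of 0.31, 0.42, 0.40 and 0.94 in knockout LPS, 0.38, −0.56, −0.44 and −0.67 in knockout saline, 0.04, −0.08, −0.48 and −0.35 in wild-type LPS, and 0.06, 0.06, −0.50 and −0.91 in wild-type saline. Knockout minus wild type was 0.73 ± 0.27 after LPS and 0.00 ± 0.27 after saline, and the saline value was 0.38 ± 0.30 without wild-type saline replicates 1 and 2. LPS minus saline was 0.84 ± 0.27 in knockout, where knockout saline replicate 1 overlapped the LPS arrays. In wild type it was 0.10 ± 0.27, and 0.48 ± 0.30 without the pair. With the mean of both probes the genotype difference after LPS was 1.07 (adjusted p = 0.00593).

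Txnip, which encodes the thioredoxin-binding protein, had higher levels with LPS in knockout, by a difference that did not pass. Its levels were 0.53, 0.56, 0.50 and 0.24 in knockout LPS, against −1.17, −0.71, −0.58 and −0.26 in knockout saline. The groups did not overlap, and the difference was 1.14 ± 0.32 (2.2-fold, adjusted p = 0.0686). It passed with slide as a block (adjusted p = 0.0343), in a fit of the knockout arrays alone (adjusted p = 0.0126) and without wild-type saline replicates 1 and 2 (adjusted p = 0.00287). Within slides it was 0.94 ± 0.16 on slide 3 (adjusted p = 0.0533) and 1.34 ± 0.40 on slide 4 (adjusted p = 0.472).

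In wild type the Txnip levels were 0.42, 1.01, 0.65 and 0.43 after LPS, against 0.94, 0.87, −0.63 and −0.46 after saline. The split within wild-type saline was again between replicates 1 and 2 and replicates 3 and 4. The difference was 0.45 ± 0.32 (adjusted p = 0.879), and without the pair Txnip rose by 1.17 ± 0.25 (adjusted p = 0.018). Of all genes tested, 0.0103% were called for LPS in wild type with all arrays and 3.14% without that pair. The count of members called was 0 of 7 with limma, and 0 at an unadjusted p under 0.05, with all arrays, and 2 of 7 (Casp4 and Txnip) without the pair.

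Between genotypes the Txnip probes disagreed. By the brighter probe, Txnip was lower in knockout after saline (−0.86 ± 0.32, adjusted p = 0.0361), with overlapping groups, and the difference was −0.14 (adjusted p = 0.691) without wild-type saline replicates 1 and 2. After LPS it was −0.17 ± 0.32 (adjusted p = 0.686). The second, dimmer probe had levels of −4.11 to −3.73 in knockout LPS and −4.90 to −4.32 in knockout saline, against −2.73 to −2.40 in wild-type LPS and −2.47, −2.27, −4.21 and −3.92 in wild-type saline. Its knockout groups lay below the wild-type groups without overlap, by −1.36 ± 0.34 after LPS and −1.40 ± 0.34 after saline, and the saline value was −0.55 ± 0.20 without the pair. LPS minus saline on that probe was 0.70 ± 0.34 in knockout. In wild type it was 0.67 ± 0.34, and 1.52 ± 0.20 without the pair.

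**Figure D2:**
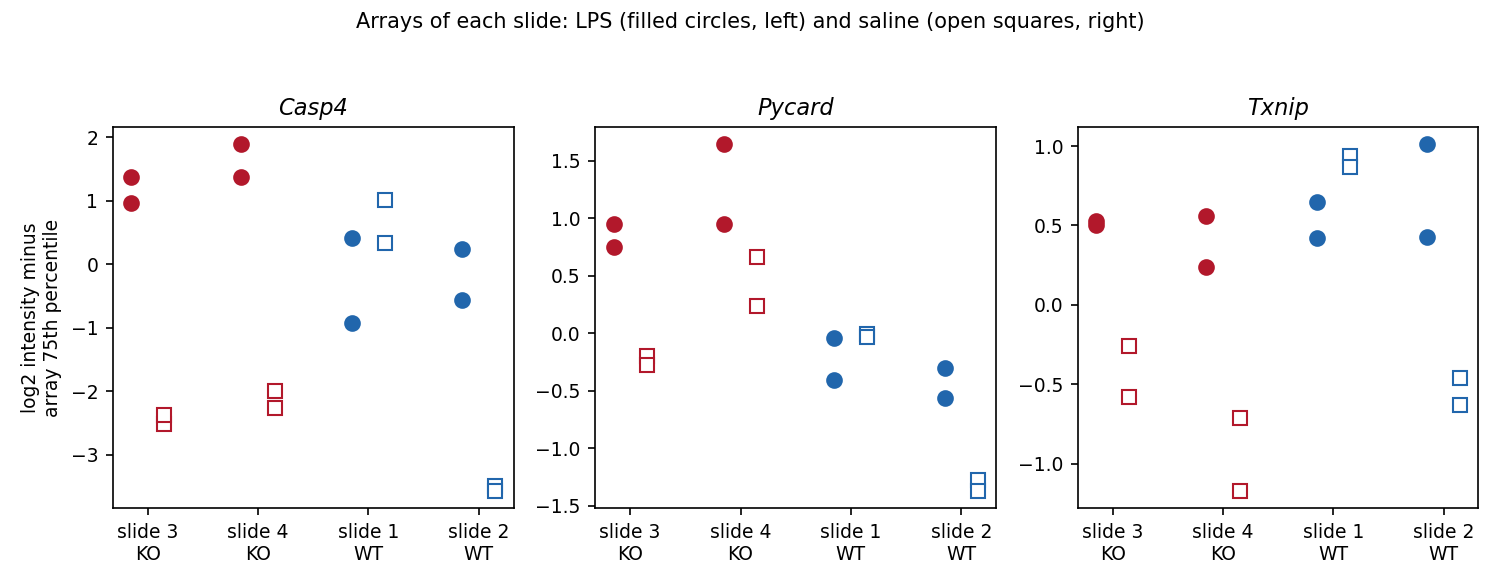
Levels of Casp4, Pycard and Txnip (y axis, log2 intensity minus the 75th percentile of the array) on the arrays of each slide (x axis), with LPS arrays as filled circles left of saline arrays as open squares, red for knockout and blue for wild type. On slides 3, 4 and 2 the LPS arrays lie above the saline arrays for all 3 genes. On slide 1 the saline arrays are wild-type saline replicates 1 and 2, and for Casp4 they lie at 1.01 and 0.34 beside LPS arrays at −0.93 and 0.42.

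Inside groups, how Casp4, Pycard and Txnip ran together depended on the wild-type saline pair. After each group's mean was removed, Casp4 correlated across the 16 arrays with Pycard (Pearson r = 0.87) and with Txnip (r = 0.82), and Pycard with Txnip at r = 0.47. Without wild-type saline replicates 1 and 2 these values were 0.70, 0.05 and −0.60, and they are given as a description. The genes most like Casp4 by this measure, among 14503 with a symbol, were Cd274, which encodes the immune checkpoint ligand PD-L1 (r = 0.99), and the chemokine Ccl5 (r = 0.98), and without wild-type saline replicates 1 and 2 these were 0.87 and 0.90. Pycard was most like Mpzl3 (r = 0.95) and the metallothionein Mt1 (r = 0.95), with 0.89 and 0.90 without the pair. Txnip was most like Cep152, a centrosomal gene (r = 0.96), and Ube2l6, which encodes an ISG15-conjugating enzyme (r = 0.96), with 0.86 and 0.88 without the pair.

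The promoters of Casp4 and Txnip are shown because the LPS arrays of both genes lay above the saline arrays on slides 2, 3 and 4 and because a motif matched in each. Windows from 250 bases before to 50 bases after the start were taken from RefSeq (GRCm38.p6) and searched on both strands for an NF-kB site, an interferon-stimulated response element, a gamma-activated site (TTCNNNGAA) and a carbohydrate response element. NF-kB is a transcription factor that Toll-like receptor 4 activates, and the carbohydrate response element binds the glucose-responsive factor MondoA and its relative ChREBP. Capitals mark the matches, an NF-kB match from −93 to −83 in Casp4, where 2 matches overlap, and a carbohydrate response element from −85 to −69 in Txnip.
Casp4, chr9:5308599-5308898, plus strand: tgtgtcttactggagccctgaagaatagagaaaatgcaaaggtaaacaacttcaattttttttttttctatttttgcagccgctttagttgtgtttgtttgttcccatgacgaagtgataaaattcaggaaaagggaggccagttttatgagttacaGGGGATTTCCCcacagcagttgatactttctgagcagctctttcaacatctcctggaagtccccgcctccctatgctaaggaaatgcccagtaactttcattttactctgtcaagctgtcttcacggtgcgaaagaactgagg
Txnip, chr3:96557707-96558006, plus strand: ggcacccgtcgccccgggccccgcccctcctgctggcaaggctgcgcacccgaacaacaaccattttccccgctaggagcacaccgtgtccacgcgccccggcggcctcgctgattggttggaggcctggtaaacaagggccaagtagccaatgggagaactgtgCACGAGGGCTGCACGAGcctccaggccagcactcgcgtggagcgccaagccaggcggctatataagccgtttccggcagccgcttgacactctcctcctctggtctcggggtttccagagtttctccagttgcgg

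Of 32851 promoter windows, 5.89% held an NF-kB match, 3.44% an interferon-stimulated response element, 8.3% a gamma-activated site and 0.0487% (16 windows) a carbohydrate response element. The carbohydrate response element was added to the search after the Txnip window had been read. Among the 8 genes, an NF-kB match was also present in the upstream window of Nlrp3, from −186 to −177, and no member window held an interferon-stimulated response element or a gamma-activated site. These matches describe letters in the windows and were not tested for binding.

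Nlrp3, the sensor that P2X7 signalling feeds, differed between genotypes, and its LPS differences did not pass. Its levels were −3.03, −3.83, −3.33 and −3.77 in knockout LPS, against −6.14, −5.74, −5.59 and −5.15 in wild-type LPS. In knockout saline they were −3.46, −3.57, −3.27 and −3.05, against −5.58, −4.57, −5.03 and −5.76 in wild-type saline. All 8 knockout arrays lay above all 8 wild-type arrays, and Nlrp3 was higher in knockout by 2.17 ± 0.27 after LPS (4.5-fold, adjusted p = 2.24e-05) and by 1.89 ± 0.27 after saline (3.71-fold, adjusted p = 6.77e-05). Before scaling, its intensity was 27 to 75.3 on knockout LPS arrays, against 8.37 to 19.8 on wild-type LPS arrays, and 41.7 to 59.7 on knockout saline arrays, against 13.8 to 37.6 on wild-type saline arrays. The probe was thus dim, and wild-type LPS replicate 1 and wild-type saline replicate 4 were not well above background. With normexp background correction, with an offset of 50, the differences were 0.51 (adjusted p = 0.00155) and 0.45 (adjusted p = 0.00327). LPS minus saline for Nlrp3 was −0.15 ± 0.27 in knockout (adjusted p = 0.833) and −0.42 ± 0.27 in wild type (adjusted p = 0.854). Without wild-type saline replicates 1 and 2, Nlrp3 was higher in knockout after saline by 2.05 ± 0.31 (adjusted p = 0.000351), and LPS minus saline in wild type was −0.27 ± 0.31.

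Genotype differences were widespread on these arrays, and the members' counts are to be read against that. After LPS, 47.2% of all genes were called between genotypes (25.9% higher and 21.2% lower in knockout), and 51.9% had groups that did not overlap. After saline the corresponding shares were 50.9% (28.6% higher and 22.3% lower) and 46.1%. Of the 7 tested members, 4 were called after LPS (Nlrp3, Pycard and Panx1 higher, Casp8 lower) and 4 after saline (Nlrp3 and Panx1 higher, Casp8 and Txnip lower), which is close to the share of all genes. Without wild-type saline replicates 1 and 2, 35.8% of all genes were called after saline (19.8% higher and 16% lower in knockout), against 5 of the 7 members (Nlrp3, Pycard, Casp4 and Panx1 higher, Casp8 lower). The groups did not overlap for 5 of the 7 members after LPS and for 3 after saline.

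Genotype differences ran with the base composition of the probes and with markers of neighbouring brain regions and of other cells. The median difference after LPS was −0.28 over the 3856 genes whose probe has 21 G and C bases and 0.42 over the 1581 genes with 33. With that trend removed, an alternative chosen once the data were known, Nlrp3 was higher in knockout after LPS by 1.92 ± 0.29, Panx1 by 0.67 ± 0.15 and Pycard by 1.42 ± 0.34, and Casp8 was lower by −1.04 ± 0.22. The mean of 6 striatal markers was −0.45 to −0.19 in knockout LPS and −0.74 to −0.44 in knockout saline, against −0.09 to 1.27 in wild-type LPS and 0.39 to 1.28 in wild-type saline. The mean of 5 hippocampal markers was −1.40 to −1.08 in knockout LPS and −1.39 to −1.02 in knockout saline, against −0.94 to −0.12 in wild-type LPS and −0.67 to 0.69 in wild-type saline. The mean of 6 oligodendrocyte markers was 1.62 to 2.04 in knockout saline, against 2.35 to 3.51 in wild-type saline, and the LPS groups overlapped. The mean of 7 microglial markers was −0.01 to 0.31 in knockout LPS, against −0.57 to −0.36 in wild-type LPS, and the saline groups overlapped. The part of such markers in the genotype differences of the members was not tested.

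Casp8, the initiator caspase of death receptors, was lower in knockout after LPS and after saline. Its levels were −2.77, −3.15, −2.79 and −3.20 in knockout LPS, against −2.10, −1.65, −1.68 and −2.15 in wild-type LPS. In knockout saline they were −3.20, −4.17, −3.79 and −3.10, against −1.85, −1.61, −1.95 and −2.06 in wild-type saline. The genotypes did not overlap, and Casp8 was lower in knockout by −1.08 ± 0.23 after LPS (adjusted p = 0.00138) and by −1.70 ± 0.23 after saline (adjusted p = 3.73e-05), or −0.73 and −0.90 with normexp. Before scaling the intensity was 28.7 to 89.8 on knockout arrays, against 131 to 340 on wild-type arrays. LPS minus saline was 0.59 ± 0.23 in knockout (adjusted p = 0.229), with overlapping groups, and −0.03 ± 0.23 in wild type (adjusted p = 1). Without wild-type saline replicates 1 and 2, Casp8 was lower in knockout after saline by −1.56 ± 0.29 (adjusted p = 0.00134), and LPS minus saline in wild type was 0.11 ± 0.29.

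Panx1, the ATP release channel, had higher scaled levels on all 8 knockout arrays than on all 8 wild-type arrays. Levels on its brighter probe were 3.20, 3.33, 3.33 and 3.53 in knockout LPS and 3.57, 3.53, 3.27 and 3.46 in knockout saline, against 2.87, 2.54, 2.79 and 2.72 in wild-type LPS and 2.41, 2.58, 2.71 and 2.84 in wild-type saline. The difference was 0.62 ± 0.15 after LPS (1.54-fold, adjusted p = 0.00294) and 0.82 ± 0.15 after saline (1.77-fold, adjusted p = 0.000347), or 0.93 and 1.10 with normexp. Before scaling to the 75th percentile, the intensity of that probe was 3810 to 6140 on knockout arrays and 3840 to 6210 on wild-type arrays, so the separation appears only after scaling. LPS minus saline was −0.11 ± 0.15 in knockout (adjusted p = 0.767) and 0.09 ± 0.15 in wild type (adjusted p = 0.98). Without wild-type saline replicates 1 and 2, Panx1 was higher in knockout after saline by 0.68 ± 0.17 (adjusted p = 0.00856), and LPS minus saline in wild type was −0.05 ± 0.17. The second Panx1 probe was well above background on 3 of 16 arrays and was not tested.

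Casp1, the caspase that matures interleukin-1β, passed in no comparison. Its levels were −1.41, −1.29, −1.33 and −1.43 in knockout LPS, −1.80, −1.38, −1.70 and −1.86 in knockout saline, −1.84, −1.12, −1.55 and −1.84 in wild-type LPS, and −1.51, −1.67, −1.50 and −1.35 in wild-type saline. The groups overlapped in all 4 comparisons. LPS minus saline was 0.32 ± 0.17 in knockout (adjusted p = 0.427) and −0.08 ± 0.17 in wild type (adjusted p = 0.992), and knockout minus wild type was 0.22 ± 0.17 after LPS (adjusted p = 0.308) and −0.18 ± 0.17 after saline (adjusted p = 0.40). With normexp the difference after saline was −0.34 and passed (adjusted p = 0.0437). Without wild-type saline replicates 1 and 2 it was −0.27 ± 0.22, and LPS minus saline in wild type was −0.17 ± 0.22, and neither passed.

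Aim2, the sensor of cytosolic DNA, was not well above background on any of the 16 arrays, with levels of −7.75 to −6.49 in knockout LPS, −7.35 to −6.64 in knockout saline, −8.61 to −7.87 in wild-type LPS and −8.47 to −7.97 in wild-type saline. Its intensity was 2.49 to 4.35 on all arrays. With no filter on dim probes Aim2 was called as higher in knockout after LPS (adjusted p = 0.0187) and after saline (adjusted p = 0.00277), with no overlap of the scaled levels in either. No fold is given, because the signal was not well above background in either genotype. Its single probe has 20% G and C bases, against a median of 40% over all probes.

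**Figure D3:**
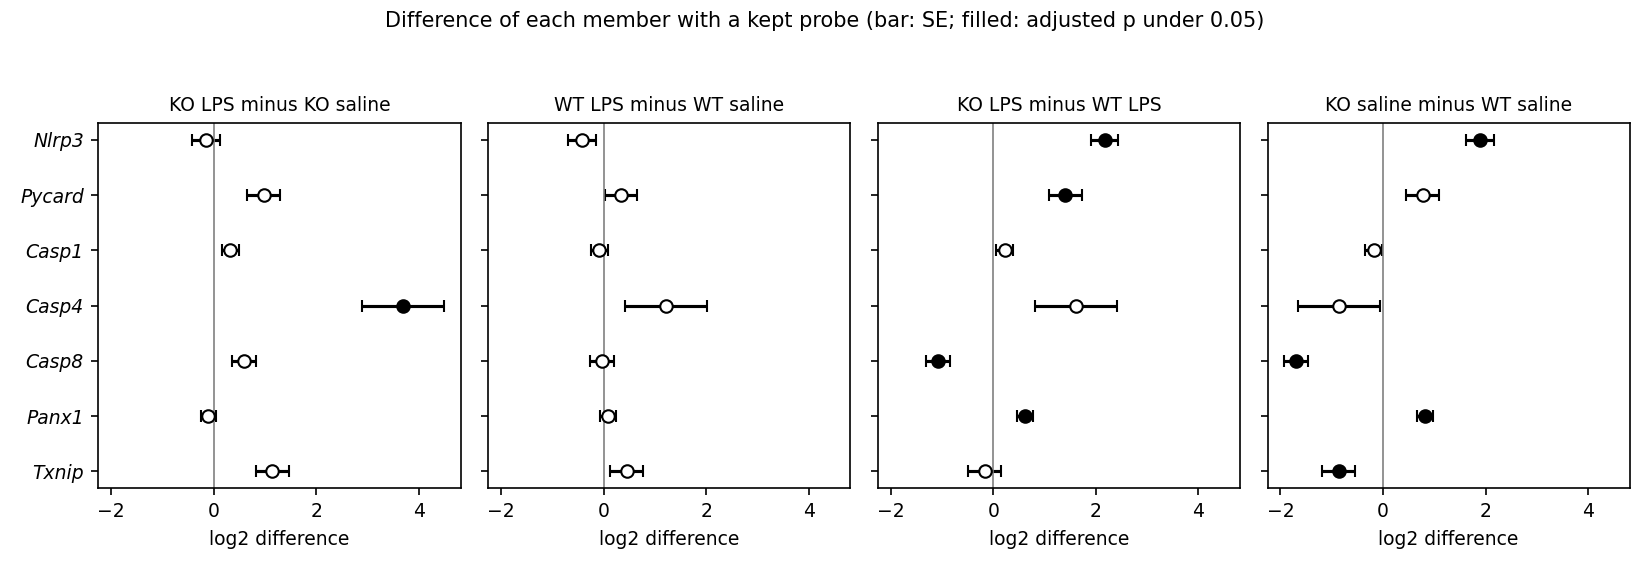
Log2 differences (x axis) of the 7 genes with a kept probe (y axis) in 4 comparisons, 1 panel each, with bars for the standard error and filled points for an adjusted p under 0.05. The LPS panels hold 1 filled point, Casp4 at 3.69 in knockout, and the genotype panels hold 4 each, with Nlrp3 at 2.17 and 1.89 and Casp8 at −1.08 and −1.70.

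In the test of the difference between the LPS responses of the genotypes, 0.036% of all genes were called and 0 of the 7 members with limma (1 at an unadjusted p under 0.05, Casp4). The median of the 7 members was 0.59 for LPS in knockout and 0.09 for LPS in wild type, against −0.09 and −0.04 over all genes. It was 0.62 for knockout minus wild type after LPS and −0.18 after saline, against 0.05 and 0.07 over all genes. The groups did not overlap for 3 of the 7 members for LPS in knockout (Casp4, Pycard and Txnip), against 11.3% of all genes. For LPS in wild type this was so for 0 of the 7 members, against 4.79% of all genes.

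The authors' deposited table of fold changes between group means lists 6 of the 11 probes. It gives Casp4 as 12.9-fold up with LPS in knockout and 2.33-fold up in wild type. For knockout against wild type after LPS it gives Nlrp3 as 4.53-fold up and Casp8 as 2.12-fold down. In that comparison Txnip is 2.58-fold down by its dimmer probe and 1.13-fold down by its brighter probe.

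Among genes of the same pathway, the products that inflammasomes act on and their inhibitors rose with LPS in knockout in 3 of 7 cases. Il1b, the interleukin-1β precursor, had levels of −1.38, −1.33, −1.28 and −1.38 in knockout LPS, against −3.83, −4.48, −4.71 and −4.09 in knockout saline, a rise of 2.94 ± 0.62 (adjusted p = 0.0136). In wild type it had −4.33, −2.19, −1.67 and −3.87 after LPS, against −2.40, −2.37, −4.74 and −5.03 after saline, and the groups overlapped. Il1rn, the natural antagonist of interleukin-1, was not well above background on any knockout saline array and rose at least 11.8-fold. Il18bp, which neutralises interleukin-18, rose by 1.01 ± 0.25 (adjusted p = 0.0353). Il18 itself had levels of 0.87 to 1.53 in knockout LPS, against 0.79 to 1.34 in knockout saline, and these overlapped.

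Of 11 other sensors measured, 3 rose with LPS in knockout, namely Ifi204, a DNA sensor of the same family as Aim2 (4.57 ± 0.79), Nod2, which binds bacterial muramyl dipeptide (1.80 ± 0.30), and Mefv, which encodes pyrin (at least 2.18-fold). Of 9 co-factors, 4 rose, with Gbp2 at 5.67 ± 1.03, Zbp1, a sensor of Z-form nucleic acids, at 5.41 ± 1.18 and Gbp5 at 4.63 ± 0.96. The guanylate-binding proteins Gbp2 and Gbp5 coat bacteria and LPS and aid caspase-4 activation. Of 14 priming receptors and transcription factors, 7 rose, with the receptor Tlr2 at 4.36 ± 0.65, the interferon regulator Irf7 at 3.77 ± 0.76 and the LPS co-receptor Cd14 at 3.72 ± 0.62.

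Around caspase-8, 5 of 10 genes rose with LPS in knockout, with the necroptosis executor Mlkl at least 12.5-fold, its kinase Ripk3 at least 2.76-fold and the ubiquitin ligase Birc3 at 2.55 ± 0.46. Among other caspases, Casp12 rose by 1.34 ± 0.29. None of 11 genes of the thioredoxin system and the arrestin-domain relatives of Txnip, and none of 4 genes for ATP-gated channels and potassium efflux, was called with limma for LPS in knockout (3 and 1 at an unadjusted p under 0.05) or in wild type (1 and 0). In all, 24 of the 73 genes tested in these 8 lists rose and 0 fell with LPS in knockout, and 34 had an unadjusted p under 0.05. Over all genes tested, 2.5% rose in that comparison.

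For LPS in wild type, 0 of the 73 genes were called with all arrays (limma, 10 at an unadjusted p under 0.05), against 19 without wild-type saline replicates 1 and 2. Over all genes tested, 1.91% rose without that pair, which was singled out on these same data. The 19 genes, all higher after LPS, were 2 of 11 sensors, 2 of 7 outputs, 5 of 10 genes around caspase-8, 4 of 9 co-factors and 6 of 14 priming genes. No other caspase, thioredoxin gene or channel gene was called there (limma, 1, 4 and 1 at an unadjusted p under 0.05). Examples were Gbp2 (5.11 ± 0.35) and Ifi204 (3.92 ± 0.36), whereas Il1b at 1.87 ± 0.57 did not pass (adjusted p = 0.106). Zbp1, Il1rn and Mlkl were also called as higher. They were not well above background on wild-type saline replicates 3 and 4, so no size is given for them.

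**Figure D4:**
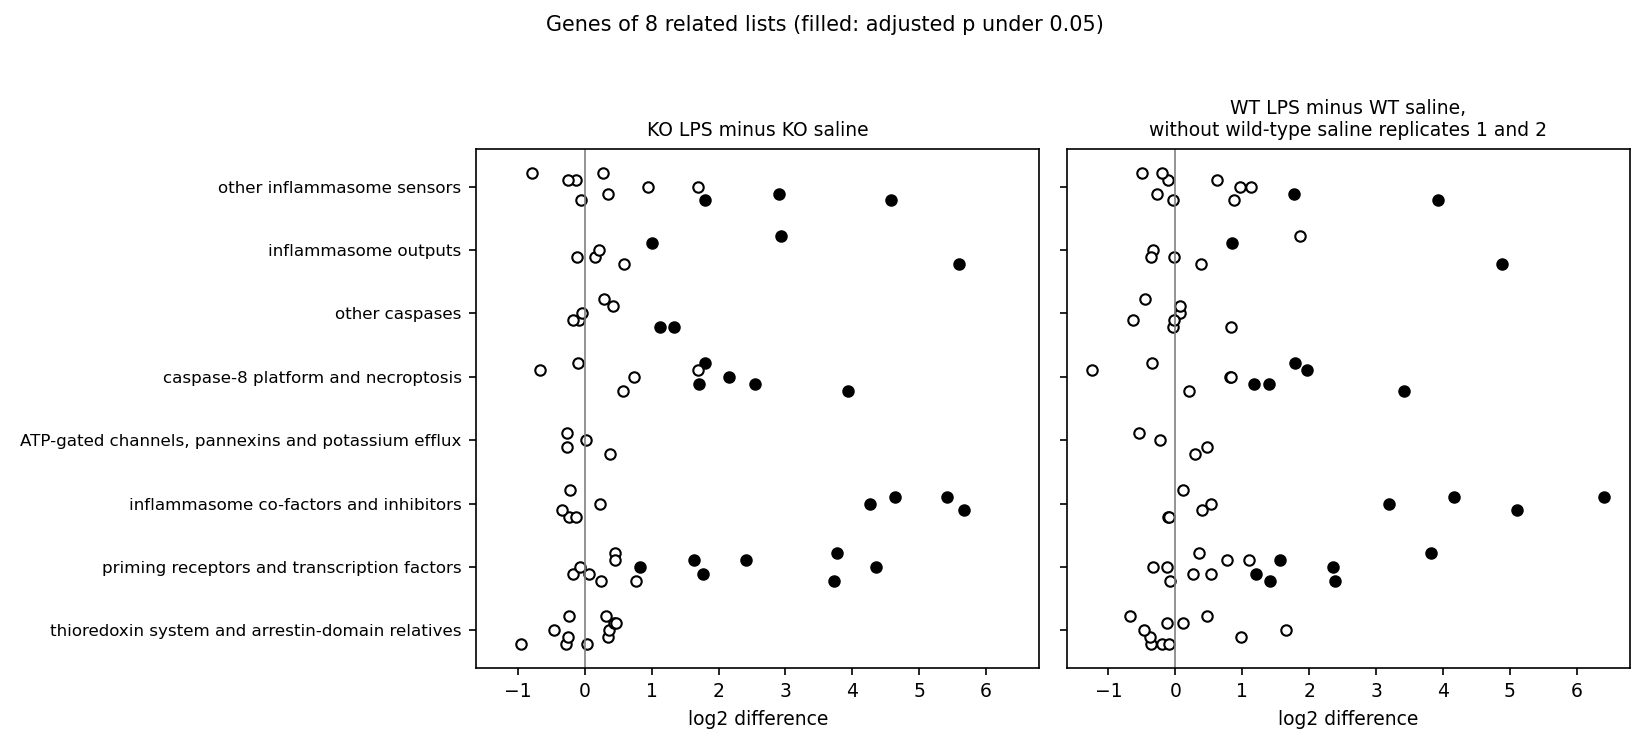
Log2 differences (x axis) of the genes of 8 related lists (y axis, 1 row per list, points spread within a row for sight only) for LPS in knockout and for LPS in wild type without wild-type saline replicates 1 and 2. Each point is 1 gene and filled points have an adjusted p under 0.05. Filled points lie to the right of 0 in both panels, and the rows of the thioredoxin system and of the ATP-gated channels hold none. For genes not well above background on the saline arrays compared, such as Il1rn and Mlkl, the position of the point does not measure a fold.

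Between genotypes the same lists held calls in both directions. After LPS, 23 of the 73 genes were higher and 10 lower in knockout, where 25.9% and 21.2% of all genes were. After saline, 12 were higher and 24 lower, where 28.6% and 22.3% of all genes were, and without wild-type saline replicates 1 and 2 the counts were 10 higher and 7 lower, against 19.8% and 16% of all genes. After LPS, Il1b (1.67 ± 0.62, adjusted p = 0.0379), Gsdmd, the pore former of pyroptosis (0.80 ± 0.24, adjusted p = 0.0144), Mlkl (1.94 ± 0.73, adjusted p = 0.039) and P2rx4, the related ATP-gated channel (0.75 ± 0.19, adjusted p = 0.00492), were higher in knockout. Casp2 (−0.94 ± 0.20), Casp12 (−0.95 ± 0.29) and Nfkb1 (−0.99 ± 0.15) were lower. Nek7, the kinase that licenses NLRP3, was higher in knockout after LPS (0.88 ± 0.28, adjusted p = 0.0161) and after saline (1.38 ± 0.28, adjusted p = 0.000795, and 1.62 ± 0.34 without the pair). After saline, Nfkb1, a subunit of NF-kB, was lower in knockout (−1.89 ± 0.15), as was Casp12 (−1.74 ± 0.29), and without the pair the values were −1.95 ± 0.19 and −1.45 ± 0.35. Gbp5 was lower by −2.79 ± 0.96 with all arrays, and without the pair the difference was −0.46 ± 0.62 (adjusted p = 0.587).

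Mean levels of neutrophil and monocyte markers and of astrocyte markers lay higher with LPS in knockout without overlap, and those of microglia did not. The mean of 5 astrocyte markers was 2.28 to 2.40 in knockout LPS, against 1.82 to 2.14 in knockout saline. In wild type it was 1.73 to 2.70 after LPS, against 2.21 to 2.29 after saline. The mean level of 6 neutrophil and monocyte markers was −0.04 to 1.30 in knockout LPS, against −1.27 to −0.32 in knockout saline, and −0.92 to −0.12 in wild-type LPS, against −0.15, −0.01, −2.43 and −1.96 in wild-type saline. Elane, a neutrophil granule gene, was well above background on none of the 16 arrays, and Ccr2, a monocyte receptor, on 1. The mean of 7 microglial markers was −0.01 to 0.31 in knockout LPS, against 0.08 to 1.10 in knockout saline, and −0.57 to −0.36 in wild-type LPS, against −0.47 to 0.46 in wild-type saline. Their part in the LPS differences of Casp4, Pycard, Txnip and the listed genes was not tested.

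The remaining likeness values describe the genes without an LPS call. After group means were removed, Casp8 was most like Pacs1 (r = 0.89) and Camta2 (r = 0.87), Panx1 like Col8a1 (r = 0.93) and Meis2 (r = 0.91), Casp1 like Foxp4 and Dbx2 (r = 0.83 each), and Nlrp3 like Cd3e (r = 0.80) and Olig3 (r = 0.78), each over 16 arrays. Panx1 and Txnip ran in opposite directions inside groups (r = −0.71, and −0.59 without wild-type saline replicates 1 and 2), and Casp1 correlated with Casp4 at r = −0.06, and at 0.49 without that pair. The arrays share slides, and these values carry no test.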

How the data were processed

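Each of the 16 arrays was an Agilent 1-colour array of Cy3-labelled cRNA. The deposited scanner files hold spot intensity. Agilent Feature Extraction 9.5 is named in the submitters' processing notes, and the processed intensity was background-subtracted and detrended within the array, per the file headers. The authors' deposited processed list holds log2 values averaged over the arrays of a group, and a further deposited list holds their linear fold change, a ratio between group means. In these lists 32 columns of per-array calls were not used. How the authors scaled between arrays is not given in the sources used here.

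Control spots were left out, outlier spots were left empty, and saturation did not occur. The processed intensity was put on a log2 scale and each array's 75th percentile was subtracted. A probe was kept (28347 were) if some group had at least 3 of its 4 arrays well above background, and the brightest kept probe represented a gene. Probes were named through their RefSeq accession (24844) or kept the name in the file (16330). limma 3.58.1 (R 4.3.3 with statmod 1.5.0) was fitted to 4 group means over 16 arrays, with Benjamini-Hochberg adjustment over 19463 genes and a threshold of 0.05, after the fit was tested on simulated data. Figures used matplotlib 3.10.9 (Python 3.11.15). For a gene whose probe was dim on every array of a group, "at least N-fold" sets the brighter mean against the mean, per array of the dim group, of the higher of that probe's signal and the faintest signal that still counted as well above background. Precision is limited by how many arrays there are.

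The genes described, the lists and the markers were chosen with earlier results of these data known. The genes named were all 8 members, P2rx7, Il1b and Il18, the called genes of each list (at most the 3 with the largest difference per comparison) and, for each member, the 2 genes most correlated with it; 1 gene that the rule names is not reported here. The lists were sensors, outputs, caspases, caspase-8 partners, channels, co-factors, priming genes and the thioredoxin system. Alternatives were median and quantile scaling, normexp background correction (offset 50), 2 other filters on dim probes, the mean of a gene's probes, slide as a fixed or random block, single slides, fits of only the groups compared, correction for the probes' base composition, and leaving out arrays. The random block and the base composition were added after the data were seen.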

Additional observations from a re-analysis of the deposited data

Results flagged for a closer look

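Among 44 groups of 4 arrays tested (11 probes in 4 groups), 2 had an array far from the other 3 by Dixon's ratio, and chance marks about 1 in 20. On the Aim2 probe wild-type LPS replicate 2 had a level of −8.61, below the others of its group. On the dimmer Panx1 probe wild-type saline replicate 4 had a level of −7.80. Neither spot was well above background.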

How the results depend on the processing

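The count of members called for LPS in knockout was 1 with all arrays and 3 with slide as a block or without wild-type saline replicates 1 and 2 (Pycard, Casp4 and Txnip). It was 2 within slide 3 alone (Pycard and Casp4) and 2 in a fit of only those groups (Casp4 and Txnip), and 1 to 2 when each array was left out in turn. Casp4 was called for LPS in knockout in all 16 of those runs (3.52 to 3.83). For LPS in wild type the count was 0, against 1 within slide 2 alone and 2 without the pair. Casp4 for knockout minus wild type after saline reversed to 1.25 without the pair. Its difference after LPS passed with normexp (1.77, adjusted p = 0.00926) and in a fit of only those groups (adjusted p = 0.00273). Nlrp3, Casp8 and Panx1 kept both genotype calls, and Pycard its call after LPS, under all alternatives, and normexp added Pycard (0.74, adjusted p = 0.0205) and Casp1 (−0.34, adjusted p = 0.0437) after saline. Txnip lost its call after saline with a random slide block (adjusted p = 0.0632), with only those groups (adjusted p = 0.111) and with base composition corrected (−0.60, adjusted p = 0.0966), and kept it in 11 of 16 runs with an array left out, losing it without knockout saline replicates 1, 2 or 3 or wild-type saline replicates 1 or 2. Of 931 member values under alternatives, 900 kept their side of the threshold, 9 lost and 21 gained a call, 1 reversed, and 17 of the uncalled changed sign. The causes were not tested. No paired analysis was possible because the labels number no single animal.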
